A study of Quercus x morisii and Quercus suber and Quercus ilex with 16 samples.

Results

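The loci described here are the MYB transcription factor genes of oak outer bark that were matched to Arabidopsis MYB5, LOC112003598 (protein XP_023891575) and LOC112035506 (XP_023924099), and 1 locus matched to AT5G35550, the Arabidopsis gene TT2 (TRANSPARENT TESTA), LOC112003190 (XP_023891148). They were chosen with earlier results of these data known and are 3 of the 47292 loci of the expression table. The match alone does not single out LOC112003190, since LOC112033971 and LOC112010882, described further on, share it. The 3 chosen loci passed the filter on low values, a mean of at least 1 over the libraries, as did 25617 loci in all. RNA from the inner face of the trunk outer bark was sequenced as 16 libraries, 4 for each of 4 barks. The trees were adults of a natural mixed stand in Fregenal de la Sierra. Cork was the virgin, never stripped bark of 4 cork oaks (Quercus suber), and rhytidome, in which thin periderms alternate with dead phloem, that of 4 holm oaks (Quercus ilex). Rhytidome-like bark came from 4 natural Q. ilex x Q. suber hybrids, described by the study as F1, and these barks were all sampled on the south side of the trunk. Cork-like bark came from 1 hybrid tree, a backcross to cork oak, sampled on its north (1), south (2), east (3) and west (4) sides, so its 4 libraries hold no variation between trees.

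MYB5 and TT2 belong to the R2R3-MYB family, whose members bind DNA through a pair of imperfect MYB repeats. In Arabidopsis, TT2 joins a bHLH protein and a WD40 protein in a complex that activates the late genes of proanthocyanidin (condensed tannin) synthesis in the seed coat. Arabidopsis MYB5 enters complexes of the same kind and acts in seed coat differentiation, mucilage and trichome shape, and partly overlaps with TT2 in tannin regulation. In trees, R2R3-MYBs of these classes are known as regulators of tannins, which are common in bark. No gene of tannin synthesis is described below.

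Values are regularized log2 counts (rlog), a scale on which 1 unit is a factor of 2, scaled by the authors for depth. Low counts are drawn toward the mean of the locus, which understates their differences. Levels of different loci are not compared, since rlog is not per length. Over the whole table the values ran from -2.29 to 20.05. Library medians spanned 1.10 to 1.22 for cork, 1.58 to 1.86 for cork-like, 1.31 to 1.70 for rhytidome-like and 1.90 to 2.36 for rhytidome, so the scaling enters differences between barks. Counts per library were not used here, and no counting error is given. The number of library pairs with identical values was 0.

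Set beside the labels were 8 suberin loci that the study named in its cork-type clusters. They were GPAT5, CYP86B1, KCS2, FAR4 at 2 loci, ASFT/FHT at 2 loci and ABCG2, and the study chose them on these libraries. It also named suberin-related genes in its rhytidome-type clusters, among them ABCG11 and SHR, which were not examined here. The mean rlog of the 8 loci per library spanned 13.4 to 14.1 for cork, 12.6 to 12.9 for cork-like, 6.99 to 8.78 for rhytidome-like and 10.8 to 11.3 for rhytidome. The mean was lowest in rhytidome-like bark, where a single locus reached as low as 1.55. On the rlog scale a value of 0 is not a count of 0, so these values do not show which markers had no reads.

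At LOC112003598, the first MYB5 locus, the rlog values were 8.44, 8.30, 7.54 and 7.29 in cork 87, 89, 90 and 91. In cork-like bark they were 8.51 (north), 9.76 (south), 9.82 (east) and 8.94 (west). In rhytidome 33, 67, 68 and 94 they were 12.19, 12.15, 12.44 and 11.91. In rhytidome-like 21, 14, 18 and 20 they were 12.87, 13.16, 13.30 and 13.45. The 4 barks did not overlap at any point and ordered from cork (7.89 ± 0.56, SD, n = 4) over cork-like (9.26 ± 0.64) and rhytidome (12.17 ± 0.21) to rhytidome-like (13.19 ± 0.25). The closest neighbours were the highest cork and the lowest cork-like library, 0.07 apart, while rhytidome-like stood 0.43 above the highest rhytidome library. At this locus and the next, the share of all loci tested whose barks separate in the same way was not counted.

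At LOC112035506, the other MYB5 locus, cork 87, 89, 90 and 91 had rlog values of 12.83, 11.64, 11.94 and 11.90. The cork-like libraries had 11.61 (north), 12.39 (south), 12.47 (east) and 12.17 (west). Rhytidome 33, 67, 68 and 94 had 14.10, 13.92, 14.17 and 13.16. Rhytidome-like 21, 14, 18 and 20 had 14.48, 16.26, 16.37 and 15.92. Cork (12.08 ± 0.52) and cork-like (12.16 ± 0.39) overlapped, and every other pair of barks was apart, with rhytidome at 13.84 ± 0.47 and rhytidome-like at 15.76 ± 0.87.

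At the TT2-type locus LOC112003190, cork 87, 89, 90 and 91 had rlog values of 5.16, 2.26, 4.84 and 3.20, and the cork-like libraries 1.90 (north), 4.48 (south), 3.77 (east) and 2.21 (west). Rhytidome 33, 67, 68 and 94 had 2.71, 5.94, 4.33 and 6.64. Rhytidome-like 21, 14, 18 and 20 had 9.96, 11.22, 11.45 and 11.27. The rhytidome-like libraries were all above the other 12, by 3.32 from the highest rhytidome library, whereas cork (3.87 ± 1.37), cork-like (3.09 ± 1.24) and rhytidome (4.90 ± 1.75) overlapped each other. How many of all loci tested had rhytidome-like bark above the other 12 libraries was not counted. The spread between libraries within a bark, pooled over the barks, was an SD of 1.32 at this locus, larger than at 94.7% of the loci tested. It was 0.46 at LOC112003598 and 0.59 at LOC112035506, larger than at 49.5% and 63.2% of loci.

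**Figure D1:**
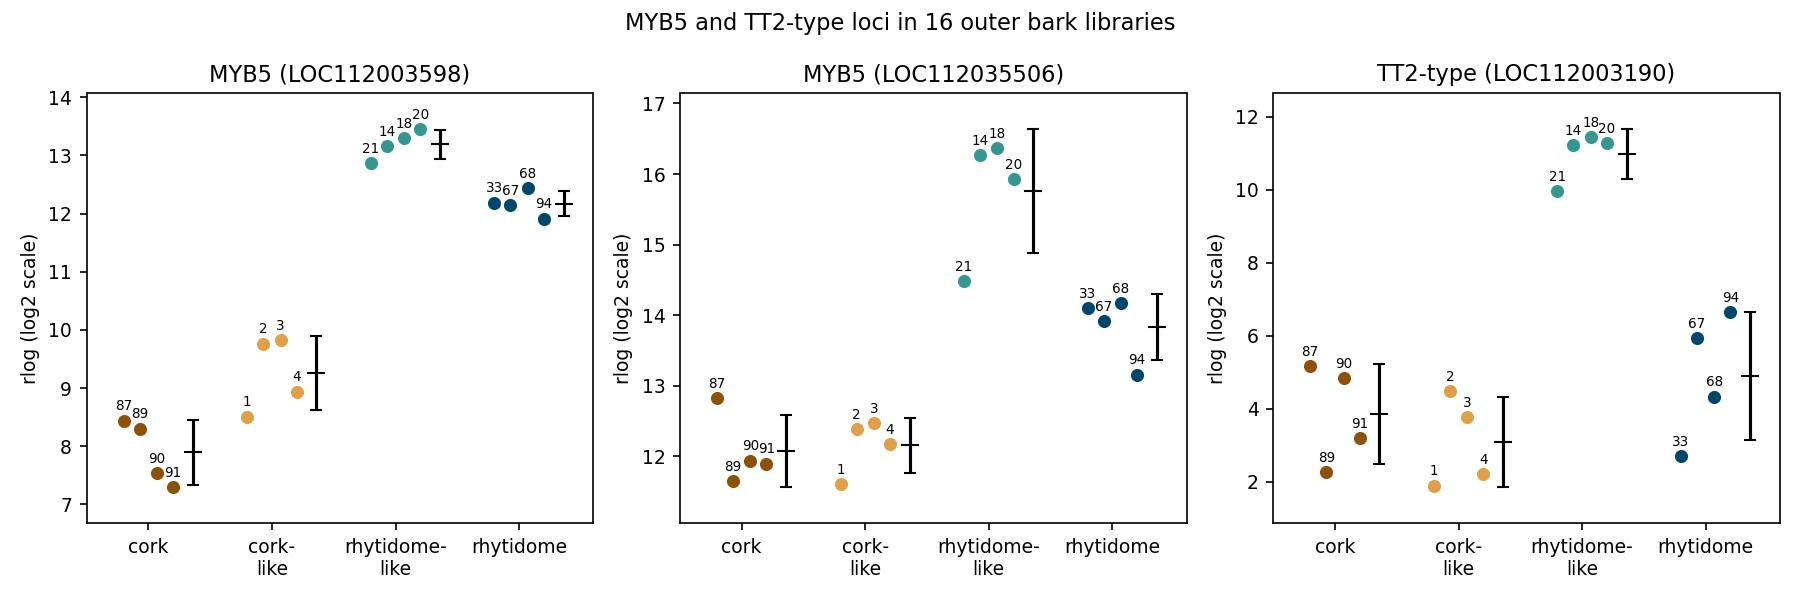
The rlog value (log2 scale, vertical axis) of the MYB5 and TT2-type loci in each library, by bark, with the library number beside each point and the mean ± SD of 4 libraries in black. At all 3 loci the 4 rhytidome-like libraries lie highest, and only at LOC112003598 are cork, cork-like and rhytidome separate from each other.

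Differences between barks were tested with limma over the 25617 loci, and calls followed the study's thresholds, namely a Benjamini-Hochberg adjusted p below 0.01 together with a log2 fold change beyond 1 in either direction. Between the parent species both MYB5 loci were called lower in cork than in rhytidome. LOC112003598 fell by 4.28 (log2, SE 0.30, limma, adjusted p = 3.34e-08), a factor of 19.4, and LOC112035506 fell by 1.76 (SE 0.38, adjusted p = 0.00121), a factor of 3.38. The TT2-type locus did not pass, with a log2 fold change of -1.04 (95% interval -2.85 to 0.77, adjusted p = 0.322). That value was -0.17 with quantile normalization, -0.15 with median centring and -1.77 to -0.46 without single libraries (-0.46 without rhytidome 94 and -1.77 without rhytidome 33). For comparison, 29.6% of all loci tested were called in this comparison, and the median log2 fold change over them was -0.16. The call at LOC112035506 was lost when each library was centred on its median (-0.87, limma, adjusted p = 0.0651). That scaling raises every log2 fold change of cork against rhytidome by 0.88. Over all loci tested it moved the calls from 3043 higher and 4534 lower in cork to 8628 higher and 2179 lower. Upper quartiles of the libraries differed less than their medians, at 7.92 to 7.94 in cork and 8.06 to 8.13 in rhytidome.

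Cork and cork-like bark were called different at LOC112003598 and at neither of the other loci. LOC112003598 was lower in cork than in cork-like bark by a log2 fold change of -1.37 (SE 0.30, limma, adjusted p = 0.00281), in a comparison in which 13.9% of loci were called. LOC112035506 differed by -0.08 (95% interval -0.88 to 0.72, adjusted p = 0.891) and the TT2-type locus by 0.78 (-1.03 to 2.59, adjusted p = 0.511). The call at LOC112003598 rests on the 4 sides of 1 tree and was lost with these libraries averaged to 1 (adjusted p = 0.0724), with median centring (-0.79, adjusted p = 0.0531) and without cork 90, cork-like south or cork-like east, where the log2 fold change was -1.25, -1.20 and -1.18.

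Against rhytidome, cork-like bark was called lower at both MYB5 loci, with log2 fold changes of -2.91 (SE 0.30, limma, adjusted p = 2.93e-06) at LOC112003598 and -1.68 (SE 0.38, adjusted p = 0.00238) at LOC112035506, where 21.5% of all loci were called. At the TT2-type locus the value was -1.82 (95% interval -3.63 to -0.004, adjusted p = 0.102). On the way from the cork mean to the rhytidome mean, the cork-like mean lay at 31.9% at LOC112003598 and at 4.62% at LOC112035506. The call at LOC112035506 was lost with the cork-like libraries averaged (adjusted p = 0.114), with median centring (-1.37, adjusted p = 0.0110) and without the north library.

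Rhytidome-like bark had more transcript of all 3 loci than either cork-type bark. Compared with cork, where 31.7% of loci were called, the limma log2 fold changes of cork minus rhytidome-like were -5.30 at LOC112003598 (adjusted p = 1.47e-09), -3.68 at LOC112035506 (adjusted p = 8.02e-07) and -7.11 at LOC112003190 (adjusted p = 4.14e-06). These are factors of 39.4, 12.8 and 137.8. Compared with cork-like bark, where 27.3% were called, they were -3.94, -3.60 and -7.88, with adjusted p = 6.05e-08, 1.64e-06 and 2.23e-06. The value of -7.88 at the TT2-type locus was the lowest of all 25617 loci in that comparison. In bulk tissue, fewer cells of a type and less RNA per cell cannot be told apart, and the rhytidome-type barks hold phloem between their periderms. By the study's account the samples held phellogen and living phellem, and those of rhytidome-type barks living secondary phloem as well.

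Between rhytidome-like bark and rhytidome 2 of the 3 loci were called. The TT2-type locus was higher in rhytidome-like bark by 6.07 (log2, SE 0.85, limma, adjusted p = 6.70e-05), a factor of 67.1 and the 3rd highest log2 fold change of all loci. LOC112035506 was higher by 1.92 (SE 0.38, adjusted p = 0.00100), a factor of 3.80. LOC112003598 had a log2 fold change of 1.02 (95% interval 0.39 to 1.66, adjusted p = 0.0139) and was not called, although its 4 rhytidome-like libraries were all above the 4 rhytidome ones. In this comparison 17.7% of loci were called. The LOC112035506 call was lost with quantile normalization (1.23, adjusted p = 0.0182), in a fit of rhytidome-like and rhytidome libraries alone (1.92, adjusted p = 0.0106) and in a test of changes beyond 1 (limma's treat, adjusted p = 0.146). LOC112003598 was called with median centring (1.57, adjusted p = 8.63e-04) and in the fit of these libraries alone (1.02, adjusted p = 0.00376).

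**Figure D2:**
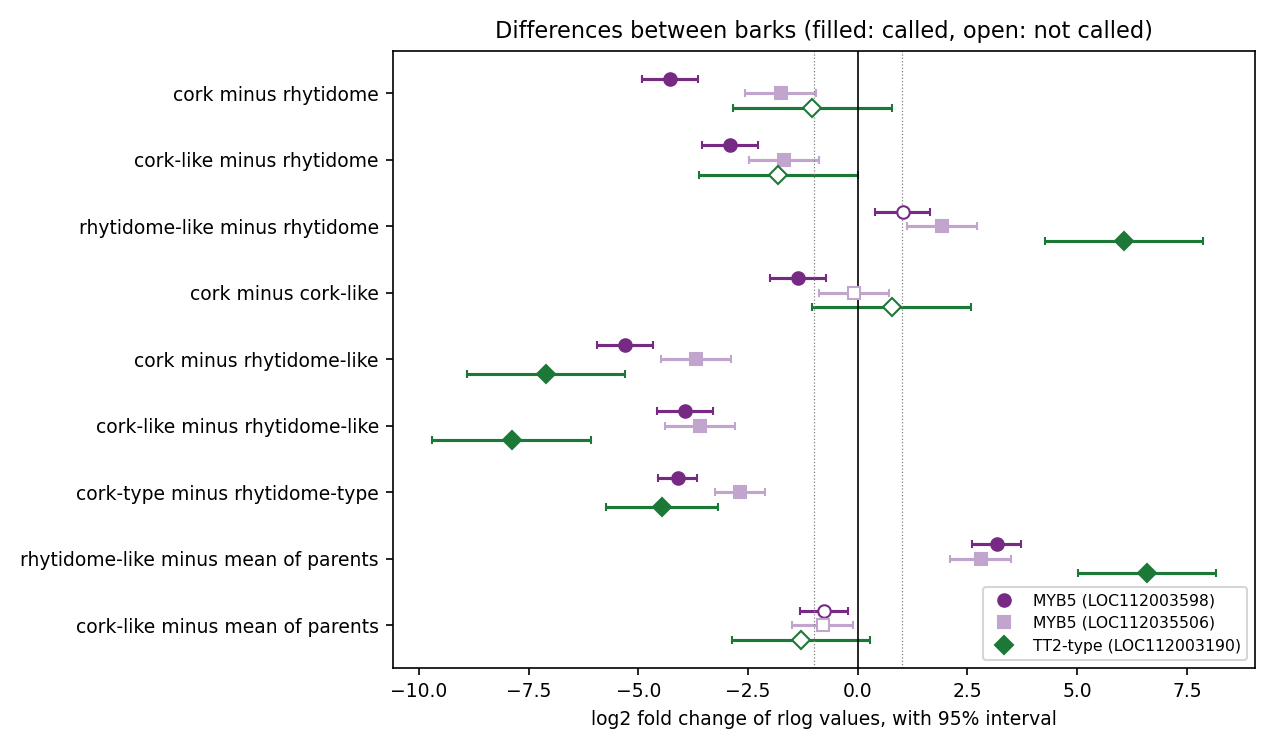
Log2 fold change of rlog (horizontal axis, with the 95% interval of the limma fit) of the 3 loci in the 6 comparisons of barks and 3 combined contrasts, filled where called and open where not, with dotted lines at -1 and 1. The TT2-type locus is open in the comparisons among cork, cork-like and rhytidome, and lies farthest from 0 in each comparison of 2 barks that includes rhytidome-like bark.

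Taking cork with cork-like and rhytidome with rhytidome-like bark, all 3 loci were called lower in the cork-type barks, with limma log2 fold changes of -4.11 (SE 0.21, adjusted p = 5.00e-10) at LOC112003598, -2.68 (SE 0.27, adjusted p = 5.60e-07) at LOC112035506 and -4.46 (SE 0.60, adjusted p = 1.35e-05) at LOC112003190, where 29.1% of loci were called. All 8 rhytidome-type libraries were above all 8 cork-type ones at both MYB5 loci, with a gap of 2.09 at LOC112003598 and of 0.33 at LOC112035506. The share of all loci tested that separate the bark types in this way was not counted. At the TT2-type locus only rhytidome-like bark was apart, and rhytidome overlapped both cork-type barks. The MYB5 loci were among genes the study selected on these libraries, so their direction here is no independent evidence.

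The hybrids were also set against the mean of the parents, the midpoint of the cork and rhytidome means on the log2 scale. Where the parents differ, this lies below the mean of their transcript amounts, which enlarges a difference above the midpoint. Rhytidome-like bark lay above that midpoint by 3.16 (log2, SE 0.26, limma, adjusted p = 1.36e-07) at LOC112003598, by 2.80 (SE 0.33, adjusted p = 4.74e-06) at LOC112035506 and by 6.59 (SE 0.74, adjusted p = 3.16e-06) at the TT2-type locus. In this contrast 23% of loci were called, and the median over all loci was -0.02. The 6.59 of LOC112003190, a factor of 96.1, was the highest of the 25617 loci, the second being at 5.29. LOC112003598 was the 184th and LOC112035506 the 288th. LOC112033971 and LOC112010882, also matched to AT5G35550, were the 113th and 828th. At both MYB5 loci and at LOC112003190 all 4 rhytidome-like libraries were above all 8 libraries of the parents, as they were at 1928 loci tested (7.53%). Without rhytidome-like 21 the differences from the midpoint were 3.27, 3.23 and 6.93 (limma, adjusted p = 6.16e-07, 3.13e-07 and 9.36e-06) at LOC112003598, LOC112035506 and LOC112003190. Over all libraries left out in turn they stayed between 3.06 and 3.27 at LOC112003598, between 2.60 and 3.23 at LOC112035506 and between 6.22 and 6.93 at LOC112003190. The rhytidome-like trees were natural hybrids whose own parent trees were not sampled.

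Cork-like bark was not called against the midpoint at any of the 3 loci, with log2 differences of -0.77 (95% interval -1.32 to -0.23, limma, adjusted p = 0.0323), -0.80 (-1.49 to -0.10, adjusted p = 0.0746) and -1.30 (-2.86 to 0.27, adjusted p = 0.193) at LOC112003598, LOC112035506 and LOC112003190, where 12.2% of loci were called. The study expects this backcross tree to carry only cork oak alleles at part of its bark genes. The midpoint weighs the parents equally and does not take that into account.

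**Figure D3:**
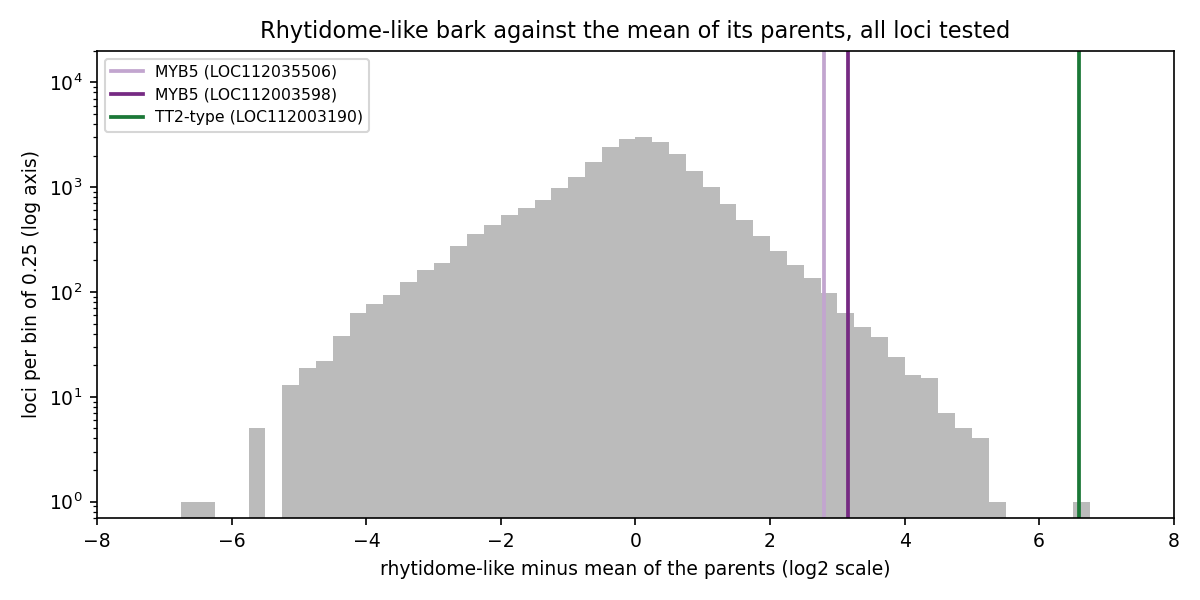
Number of loci (vertical axis, log scale) by the difference of rhytidome-like bark from the mean of the parents (horizontal axis, log2 scale, bins of 0.25) over the 25617 loci tested, with coloured lines at the MYB5 and TT2-type loci. The TT2-type line at 6.59 lies to the right of every other locus, and the MYB5 lines at 2.80 and 3.16 lie in the upper tail.

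Whether the loci changed unequally was tested on their within-library differences, with a two-sided exact permutation test for each pair of loci in each comparison of barks, 18 tests in all. With 4 against 4 libraries the smallest p is 0.0286, and after Benjamini-Hochberg adjustment the smallest reached was 0.0571, so none passed 0.05. No test could pass on its own, however large its difference. At the smallest p the adjusted value depends only on how many of the 18 tests reach it. In the comparisons with cork-like bark, here and below, the test treats the 4 sides of 1 tree as separate units. Those p-values leave out variation between cork-like trees. The log2 change of LOC112003598 minus that of LOC112035506 was -2.52 in cork minus rhytidome and -1.28 in cork minus cork-like (exact permutation p = 0.0286, adjusted 0.0571, for both). Within cork the difference between these loci was -4.18 ± 0.57 and within rhytidome -1.66 ± 0.29 (SD, n = 4). Between rhytidome-like bark and rhytidome their changes differed by -0.90 (exact permutation p = 0.114, adjusted 0.158).

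In rhytidome-like minus rhytidome, the change of LOC112035506 minus that of the TT2-type locus LOC112003190 was -4.14, and that of LOC112003598 minus the same was -5.05 (exact permutation p = 0.0286, adjusted 0.0571, for both). In cork minus rhytidome-like, the change of LOC112035506 minus that of LOC112003190 was 3.42, and in cork-like minus rhytidome-like 4.28, beside 3.95 for LOC112003598 and LOC112003190 (exact permutation p = 0.0286, adjusted 0.0571, for each). Between the MYB5 loci the changes in cork-like minus rhytidome-like differed by -0.33 (exact permutation p = 0.429, adjusted 0.482). Between cork and rhytidome the change of LOC112035506 minus that of LOC112003190 was -0.72 (exact permutation p = 0.600), and it turned to 0.10 without rhytidome 33.

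Within barks, some libraries kept the same place at all 3 loci, and these were singled out after the values were seen. Rhytidome-like 21 was the lowest of its bark at each, below the mean of the other rhytidome-like libraries by a difference of -0.44 at LOC112003598, -1.71 at LOC112035506 and -1.35 at LOC112003190. It was the lowest of its bark at 29.1% of the loci tested, with a median difference of -0.05. In the study's sequencing statistics this library has a lower share of bases of high quality than the other rhytidome-like ones, whose part in these values was not tested. Without it the log2 fold change of rhytidome-like bark against rhytidome was 1.13 (limma, adjusted p = 0.0135) at LOC112003598, 2.35 (adjusted p = 3.85e-05) at LOC112035506 and 6.41 (adjusted p = 1.12e-04) at LOC112003190.

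In the cork-like tree the south and east sides were above the north and west sides at all 3 loci, with mean differences of 1.07 at LOC112003598, 0.54 at LOC112035506 and 2.07 at the TT2-type locus, an order found at 15.3% of the loci tested. With 1 library a side there is no test of the side. Cork 87 was the highest cork library at all 3 loci, and the share of all loci at which it is highest was not counted. In rhytidome the loci did not move together, as rhytidome 94 was the lowest at both MYB5 loci and the highest at the TT2-type locus. The study's statistics give rhytidome 94 a lower mapped share, and its part was not tested. Without it rhytidome-like bark remained above rhytidome by 6.65 (limma, adjusted p = 6.10e-05) at the TT2-type locus and by 1.70 (adjusted p = 0.00401) at LOC112035506.

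Among the loci with names available here, 2 further ones match AT5G35550. At LOC112033971 (XP_023922524) the rlog values were 1.43 to 2.24 in cork, 0.47 to 0.56 in cork-like, 0.45 to 2.10 in rhytidome, and 4.36, 5.15, 5.22 and 5.24 in rhytidome-like 21, 14, 18 and 20. As at LOC112003190, rhytidome-like bark was apart from all others, by a log2 fold change of 3.89 against rhytidome (SE 0.34, limma, adjusted p = 1.01e-06), and all its libraries were above those of both parents. At LOC112010882 (XP_023899027) they spanned 4.62 to 6.80 for cork, 4.04 to 5.85 for cork-like, 8.72 to 10.7 for rhytidome-like and 8.62 to 9.45 for rhytidome. Here cork was lower than rhytidome by -3.59 (SE 0.51, limma, adjusted p = 3.39e-05), and rhytidome-like differed from rhytidome by 0.25 (95% interval -0.83 to 1.33, adjusted p = 0.731). Cork-like bark lay below the midpoint of the parents at LOC112010882, by a log2 difference of -2.23 (SE 0.44, limma, adjusted p = 0.00158), a call lost with the cork-like libraries averaged, and against rhytidome-like bark by -4.27 (adjusted p = 5.72e-06). At LOC112033971 cork was higher than cork-like bark by 1.42 (SE 0.34, limma, adjusted p = 0.00532), likewise lost on averaging. Cork minus rhytidome was 0.83 there (95% interval 0.10 to 1.55, adjusted p = 0.0542), and was called with quantile normalization (1.64) and median centring (1.71). Outside rhytidome-like bark every value of LOC112033971 was low, at most 2.24, and the counts behind these values were not examined. Only 1 of the 4 rhytidome-like libraries of LOC112010882 was above all parental ones, so the 3 TT2-type loci did not share 1 order of barks. Reads that mapped to more than 1 place were not counted by the authors, so near-identical copies could be undercounted.

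**Figure D4:**
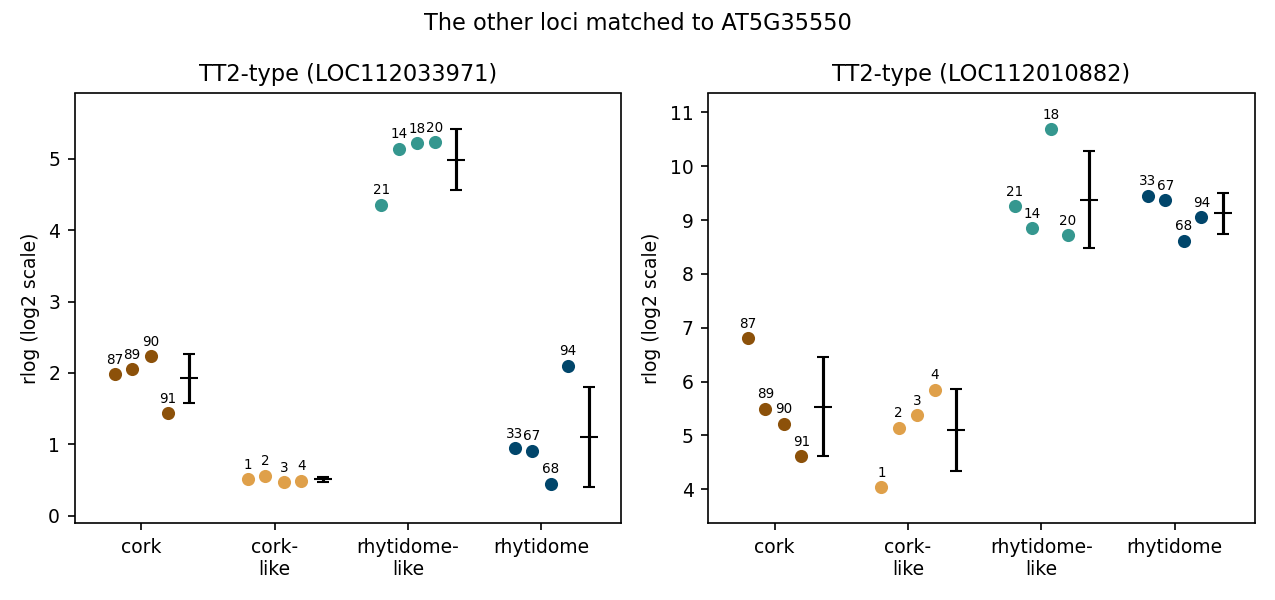
The rlog value (log2 scale, vertical axis) of the other 2 loci matched to AT5G35550 in each library, by bark, with the mean ± SD of 4 libraries in black. LOC112033971 is high in rhytidome-like bark alone, and LOC112010882 is high in both rhytidome-type barks.

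Over the 16 libraries, which share the 4 bark means, Pearson's r was 0.905 between the MYB5 loci, 0.877 between LOC112035506 and the TT2-type locus and 0.744 between LOC112003598 and the TT2-type locus. For deviations from the bark mean the values were 0.574, 0.291 and 0.298. LOC112003190 had an r of 0.915 with LOC112033971 and 0.696 with LOC112010882, and LOC112003598 one of 0.908 with LOC112010882. These correlations are descriptions of the bark pattern.

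The nearest loci were the 5 with the highest Pearson's r to each locus over 16 libraries. Of these 15 only 1 carries a name among those available here. Among all loci tested 618 had an r above 0.9 with LOC112003598, 325 with LOC112035506 and 117 with the TT2-type locus. The nearest 5 had r from 0.983 to 0.990, from 0.967 to 0.983 and from 0.947 to 0.977. These sets depended on the measure, since by Spearman's rho they shared 0, 0 and 1 of 5, and without cork-like bark 2, 3 and 1. Among loci with names, the nearest to LOC112003598 were a UDP-glycosyltransferase (LOC112005619, r = 0.981), an AUX/IAA regulator of auxin response (LOC112037337, 0.967) and KNAT1 (LOC112015571, 0.961), a KNOX homeobox gene of meristems. Nearest to LOC112035506 were a family 35 glycosyl transferase (LOC112005908, 0.960) and a glucose-1-phosphate adenylyltransferase (LOC112024621, 0.957), an enzyme of starch synthesis.

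The nearest locus to the TT2-type gene was LOC112023509, matched to MYB4, in Arabidopsis a repressor of phenylpropanoid genes, with r = 0.977 and Spearman's rho of 0.894. Its rlog values spanned 0.66 to 2.95 for cork, 0.65 to 2.14 for cork-like, 1.10 to 4.11 for rhytidome and 6.39 to 7.81 for rhytidome-like bark, where rhytidome-like 21 was again the lowest. Within barks, rhytidome 67 and 94 were the higher holm oaks and cork 87 the highest cork oak at both loci, and deviations from the bark mean had an r of 0.806, the 5th highest with LOC112003190 among 25616 loci, where the median was 0.034. The locus was picked on the r over all libraries, which includes these deviations, so they are no separate support. Against rhytidome, LOC112023509 was higher in rhytidome-like bark by 4.69 (log2, limma, adjusted p = 7.15e-05), and against the midpoint of the parents by 5.16, the 3rd highest of all loci.

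**Figure D5:**
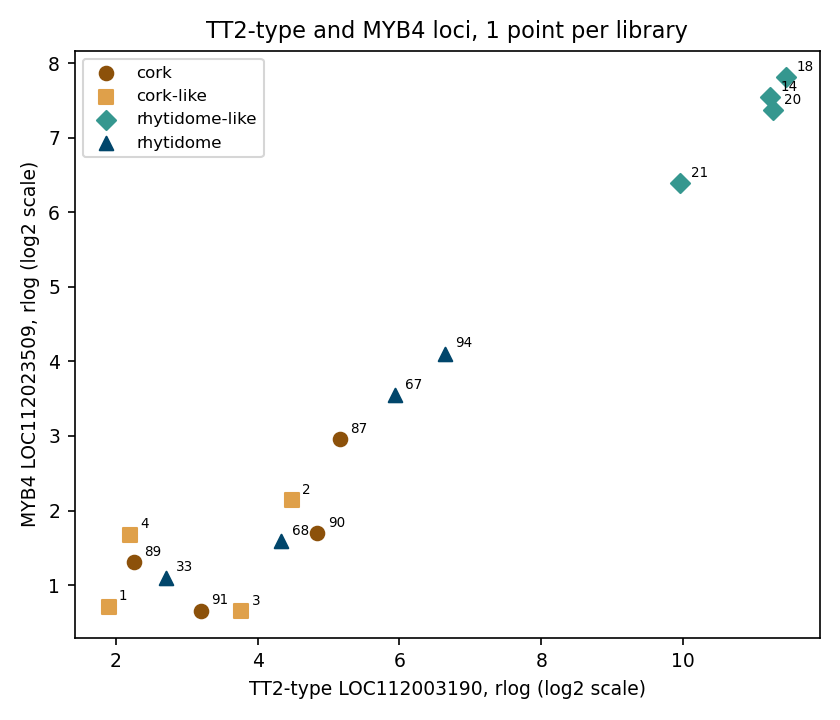
The rlog values of the TT2-type locus LOC112003190 (horizontal axis) and the MYB4 locus LOC112023509 (vertical axis, both log2 scale), 1 point per library with its number, by bark. Rhytidome-like libraries lie apart at the upper right, and rhytidome 67 and 94 are the highest of the other barks on both axes.

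The other MYBs that the study named went mostly the other way. Of 14 loci matched to the suberin regulators MYB9, MYB36, MYB84, MYB93 and MYB102, 13 were called higher in cork-type than in rhytidome-type bark and 1 lower, a MYB84 locus (LOC112010399, log2 fold change -3.70, limma), with a list median of 2.65 beside -0.10 over all loci, of which 29.1% were called. Between cork and rhytidome alone 7 of the 14 were called higher in cork, 1 lower and 6 not called, where 29.6% of all loci were called. Of 5 MYB4 loci 3 were called higher and 2 lower in cork-type than in rhytidome-type bark, the latter being LOC112023509 (-3.46) and LOC111990470 (-3.02). In cork minus rhytidome 2 of the 5 were called higher, 1 lower and 2 not called. In rhytidome-like bark against rhytidome, 13 of the 14 suberin MYB loci and 8 of 8 suberin loci were called lower, with medians of -2.11 and -2.96, beside 17.7% of all loci called in either direction and a median of -0.14. The MYB4 locus LOC111990470, whose r with LOC112003598 was 0.957, was higher by 1.31 in the same comparison. These lists were chosen by the study on the same libraries, and the 8 suberin loci come from its cork-type clusters only.

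Loci named for phloem were set beside these values and did not share 1 order of barks. BAM3 (LOC112030870), a receptor kinase of early phloem in the Arabidopsis root, had mean rlog values of 4.98 ± 1.11 (SD, n = 4) for cork, 8.01 ± 1.45 for cork-like, 11.46 ± 0.57 for rhytidome and 12.44 ± 0.62 for rhytidome-like libraries, the bark order of LOC112003598. Of 2 loci matched to the LOB-domain gene LBD4, LOC112038775 was at 7.60 ± 0.52, 6.91 ± 0.51, 9.46 ± 0.75 and 10.87 ± 0.23 in the same order of barks, and LOC111997151 was highest in cork, at 9.44 ± 0.44, and lowest in rhytidome-like bark, at 6.88 ± 0.15. LBD1 (LOC111995183) was low in all barks, with means from 1.01 in cork to 2.54 in rhytidome. The part of phloem content in the values of the 3 MYB loci was not tested.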

How the data were processed

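The 16 libraries were made from total RNA of outer bark. According to the submitters' processing notes and the study's methods, reads were checked with FastQC, trimmed with Trimmomatic 0.40, mapped to the cork oak genome with GSNAP, and processed with Cufflinks 2.2.1, HTSeq 0.11.1 and DESeq2 1.38.3. Reads of holm oak, and those of holm oak origin in the hybrids, were thus counted on the genome of another species, and the part of this in differences between barks cannot be told apart from the bark. The deposited table holds rlog values, the regularized log2 of counts per locus as transformed by the authors. The depth behind single values and the strand setting are not given in the sources used here.

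Samples were grouped by their titles. The log2 values entered a linear model in limma 3.58.1 (R 4.3.3) with 4 bark means, all 16 libraries and a variance trend, for loci whose mean rlog reached 1, with Benjamini-Hochberg adjustment within each comparison. All libraries share 1 estimate of the spread, so the 4 sides of the cork-like tree enter every p-value, and comparisons that involve it leave out variation between trees. The model was tested on simulated data in which 200 loci were changed. Exact permutation tests, correlations and figures used Python 3.11.15, numpy 2.4.6, pandas 2.3.3, scipy 1.17.1 and matplotlib 3.10.9.

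Names come from the study's tables, of which only a part was available here, with 918 named loci, 568 of them tested. Other MYB5 or TT2-type loci may be in the expression table without a name here. The loci and lists were chosen with earlier results of these data known, and the MYB4, suberin MYB, BAM3 and LBD loci were taken up after the values were at hand because the pathway lists could not be matched to loci without gene names. The nearest loci are the 5 with the highest Pearson's r to each locus, and nearest named loci, within-bark correlations and single libraries were singled out after their values were seen. Alternatives changed the filter, the variance estimate, the scaling, the fold change test, the libraries fitted and the treatment of the cork-like tree. Sequences and genome positions were not used here.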

Additional observations from a re-analysis of the deposited data

Results flagged for a closer look

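In the 20 groups formed by the 5 MYB5 and TT2-type loci in 4 barks, 2 groups held a library far from the other 3, and chance alone gives about 1 in 20. At LOC112003190 rhytidome-like 21 had an rlog of 9.96, the lowest of its bark, with a gap to the next that took 0.848 of the range of the bark. At LOC112033971 the same library had 4.36, with a gap of 0.896 of the range.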

How the results depend on the processing

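Of 234 values of the 27 member results under other settings, 213 kept direction and call. Settings that changed only the filter, the variance estimate or the fold change test could not alter the direction. Nor could averaging the cork-like libraries or fitting only the barks compared, which leave the bark means as they were. With a test of log2 fold changes beyond 1 (limma's treat), calls were lost for LOC112035506 in cork minus rhytidome (-1.76), cork-like minus rhytidome (-1.68) and rhytidome-like minus rhytidome (1.92) and for LOC112003598 in cork minus cork-like (-1.37), with adjusted p of 0.146 to 0.786. With median centring, LOC112035506 had -0.87 and -1.37 in the first pair of these (calls lost) and, turned in sign, 0.50 in cork minus cork-like, and LOC112003598 -0.79 in cork minus cork-like (call lost) and 1.57 in rhytidome-like minus rhytidome (gained). Quantile normalization gave 1.23 for LOC112035506 in rhytidome-like minus rhytidome. Averaged cork-like libraries gave no call for LOC112003598 in cork minus cork-like (-1.37) and LOC112035506 in cork-like minus rhytidome (-1.68), and a call for LOC112003598 in rhytidome-like minus rhytidome (1.02). With only the barks compared, LOC112003598 lost the call in cork minus cork-like (-1.37) and gained that in rhytidome-like minus rhytidome (1.02), and LOC112035506 lost the latter (1.92). With the south cork-like library alone, a setting added after seeing the data, cork minus cork-like was -1.87 for LOC112003598 (no call) and -0.61 for LOC112003190, the latter turned in sign, cork-like minus the mean of the parents was 0.094 for LOC112003190, also turned, cork-like minus rhytidome was -1.45 for LOC112035506 (no call), and LOC112003598 in rhytidome-like minus rhytidome was called (1.02). The cause of these changes was not tested. The last 3 settings also fitted fewer libraries, whose part was not tested either.

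Leaving out each library in turn kept 425 of 432 values. This total includes comparisons without the bark of the library left out, where the log2 fold change could not move. LOC112003598 ranged from -1.61 to -1.17 in cork minus cork-like (call lost without cork 90, cork-like 2 or cork-like 3) and from 0.94 to 1.13 in rhytidome-like minus rhytidome (call gained without cork-like 1). LOC112035506 ranged from -0.33 to 0.063 in cork minus cork-like, with the sign turned without cork 89 or cork-like 3, and from -1.90 to -1.49 in cork-like minus rhytidome (call lost without cork-like 1). The difference of changes of LOC112035506 and LOC112003190 turned in sign in cork-like minus rhytidome with quantile normalization (-0.46, from 0.14) and ranged from -0.67 to 0.96 without single libraries, and in cork minus rhytidome from -1.53 to 0.10.

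Counts of loci called moved by over 1.5 times with treat, in the order of the comparisons in the text from 7577, 3548, 5519, 8129, 6984, 4524, 7448, 5897 and 3127 to 2767, 664, 1682, 3677, 2575, 951, 2854, 1913 and 447. A filter at a mean rlog of 5 gave 5033 in cork minus rhytidome, 3644 in cork-like minus rhytidome and 2049 in cork-like minus the midpoint. Median centring gave 5747 for cork minus cork-like, and the fit of rhytidome-like and rhytidome alone 2526. Averaged cork-like libraries gave 269 in cork minus cork-like, 997 in cork-like minus rhytidome, 2515 in cork-like minus rhytidome-like and 108 in cork-like minus the midpoint, the south library alone 426, 1014, 2377 and 122, and 4955 for the bark types. Without single libraries, cork-like minus the midpoint gave 1973 to 3319. No paired analysis was possible because the barks came from different trees.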
